A study of Glycine max with 10 samples.

Results

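The late steps that lead from dihydroflavonols to anthocyanins and proanthocyanidins were followed over 5 time points of soybean seed filling through 5 genes, DFR1, LAR1, ANS2, ANR1 and UGT78K1. They were chosen by name, as the enzymes of this branch, and each has 1 probe set with it as the only gene symbol among the 37593 soybean probe sets of the array. In the RefSeq annotation of Glycine_max_v4.0, DFR1 (gene ID 548087) lies on chromosome 14, LAR1 (100786879) on chromosome 20, ANS2 (547615) on chromosome 1, ANR1 (100805127) on chromosome 8 and UGT78K1 (100794139) on chromosome 7.

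In plants, dihydroflavonol 4-reductase (DFR) makes leucoanthocyanidins, which are colourless. Leucoanthocyanidin reductase (LAR) takes them to catechin, whereas anthocyanidin synthase (ANS) takes them to coloured anthocyanidins. An anthocyanidin is reduced to epicatechin by anthocyanidin reductase (ANR) or is stabilized as an anthocyanin by a 3-O-glucosyltransferase, the activity known for UGT78K1 of black soybean. Catechin and epicatechin are the building blocks of proanthocyanidins, the condensed tannins of seed coats. In soybean seeds these pigments are known mainly from the coat, and the embryo makes isoflavones from the same early steps.

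Field-grown plants of the variety Evans were sampled 25, 30 and 40 days after flowering (DAF), during filling, and again at 45 and 50 DAF, with no treatment and no second genotype, so that time is the only factor. Each of the 10 Affymetrix arrays was hybridised with RNA of 1 pooled seed sample, and each time point has 2 biological replicates. Seeds were extracted whole, so coat and embryo RNA are mixed, and fewer cells of a type and less RNA per cell cannot be told apart. Values are MAS 5.0 signals with no detection calls, given here after each array was brought to a common median of 309.9.

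Signals under 50 are called low, since replicates of such probe sets had a median SD of 0.96 to 1.02 on the log2 scale, against 0.16 to 0.34 at mean signals from about the array median up to 2000. The array of 45 DAF replicate 2 stood apart. It correlated at 0.8804 with replicate 1, below the 0.9188 to 0.9271 of the other replicate pairs, and at 0.8609 with the 50 DAF arrays, against 0.7696 for replicate 1. With the 40 DAF arrays it correlated at 0.8942, still above its value with 50 DAF, and replicate 1 at 0.9214. Array medians were 303.8 to 325.2 up to 45 DAF and 220.8 and 222.8 at 50 DAF, and centring on them left the median change of all probe sets from 25 to 50 DAF at 0.17 on the log2 scale (-0.29 as deposited).

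Of the 5 transcripts, 4 differed over time and ended lower at 50 DAF than at any time before 45 DAF, but they left their high levels by different courses. LAR1 was highest at 25 DAF and stood lower at each later time point. DFR1 stayed above 1000 through 40 DAF, ANS2 rose until 40 DAF, and UGT78K1 showed no called change until 45 DAF. ANR1 had signals under 50 on 5 of 10 arrays and none above 76.8. The overall F-test of limma, fitted across all probe sets, called 4 of 5 at an adjusted p under 0.01, where 24% of all probe sets were called. The adjusted p was 0.000319 for ANS2, 0.00299 for DFR1, 0.00452 for LAR1, 0.00706 for UGT78K1 and 0.19 for ANR1. Leaving out either array of 25 DAF or either array of 50 DAF left only ANS2 past this test, and leaving out 30 DAF replicate 2 left DFR1 and ANS2. UGT78K1 was also lost without 30 DAF replicate 1 (adjusted p = 0.0102) and without either array of 40 DAF (adjusted p = 0.0174 and 0.0223). Without both arrays of 45 DAF the same 4 passed, with adjusted p from 3.74e-06 to 0.00015.

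**Figure D1:**
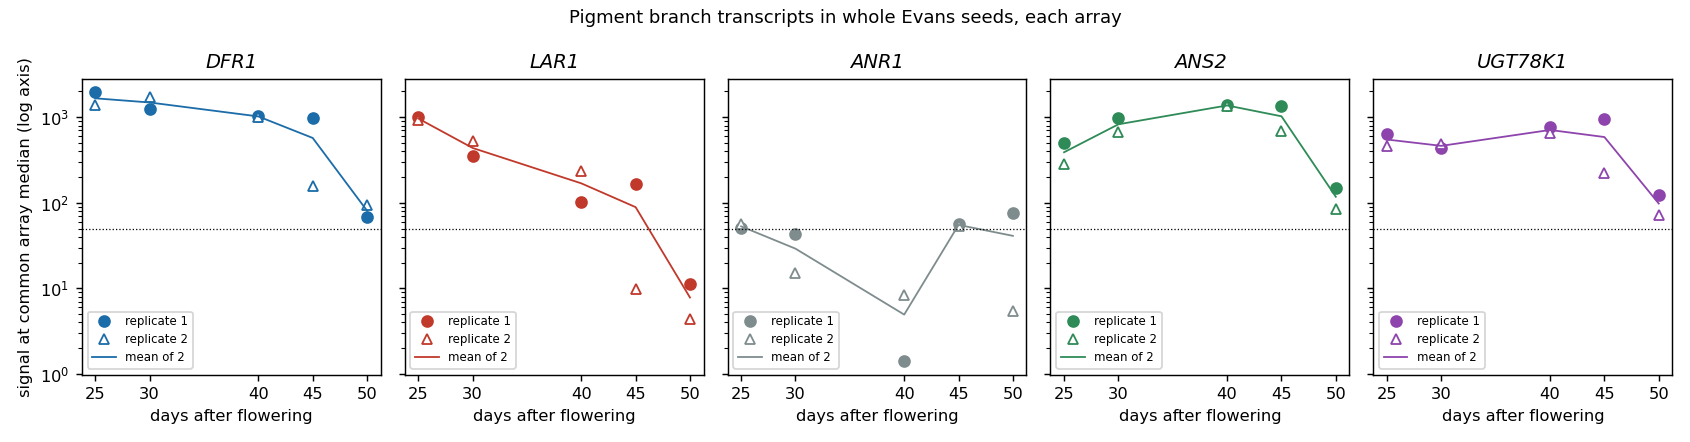
Signal of each of the 5 transcripts (log axis, arrays at a common median) against days after flowering, with replicate 1 as filled circles, replicate 2 as open triangles, the line through the mean of 2 arrays and a dotted line at a signal of 50. LAR1 declines from the start, ANS2 climbs to 40 DAF, and DFR1 is still at 61.4% of its highest mean there. LAR1, DFR1, UGT78K1 and ANS2 part between the replicates at 45 DAF, ANS2 the least, and ANR1 lies between 1.41 and 76.8.

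DFR1, the entry step of the branch, is also known as the flower colour locus W3. Its signals were 1953 and 1377 at 25 DAF, 1258 and 1718 at 30 DAF, 1041 and 1003 at 40 DAF, 989.9 and 155.4 at 45 DAF, and 68.1 and 93.5 at 50 DAF (replicates 1 and 2). The arrays of 25 and 30 DAF overlapped, those of 40 DAF lay below both, and those of 50 DAF lay below every earlier array. The mean was 1665 ± 408 at 25 DAF and 80.8 ± 17.9 at 50 DAF (SD, n = 2), which gave a log2 change of -4.36 (SE 0.65, 95% interval -5.83 to -2.89, limma, adjusted p = 0.000698).

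Up to 40 DAF the change of DFR1 from 25 DAF was -0.68 on the log2 scale, with an interval of -2.15 to 0.79 and an adjusted p of 0.639 in limma. At 45 DAF it was -2.06, with an adjusted p of 0.0947. This value joins an array at the level of 40 DAF with one 6.37-fold lower. Without 45 DAF replicate 1 it was -3.44 and called (limma, adjusted p = 0.000313), and without 45 DAF replicate 2 it was -0.68 and not called (adjusted p = 0.388). From 45 to 50 DAF DFR1 fell by 2.30 on the log2 scale (adjusted p = 0.0258), a call lost without 45 DAF replicate 1 (-0.92, adjusted p = 0.114) or without 50 DAF replicate 1 (adjusted p = 0.197), whereas without 45 DAF replicate 2 it was -3.68 (adjusted p = 4.77e-05). From 40 to 50 DAF, a comparison that uses neither array of 45 DAF in its difference, it fell by 3.68 (SE 0.65, limma, adjusted p = 0.00241).

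LAR1, which leads to catechin, was the first of the 4 called transcripts whose mean dropped under 50% of its highest. Its signals were 1011 and 923.7 at 25 DAF, 348.1 and 527.3 at 30 DAF, 101 and 236.7 at 40 DAF, 168.1 and 9.85 at 45 DAF, and 11.2 and 4.38 at 50 DAF. The arrays of 25, 30 and 40 DAF did not overlap, each time point lying below the one before. The arrays of 45 and 50 DAF overlapped, since 45 DAF replicate 2 was below 50 DAF replicate 1. Its mean at 30, 40, 45 and 50 DAF was 45.3%, 17.5%, 9.20% and 0.808% of that at 25 DAF.

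The early decline of LAR1 did not pass the test across all probe sets. Its log2 change from 25 DAF was -1.17 at 30 DAF (interval -3.65 to 1.30, limma, adjusted p = 1) and -2.64 at 40 DAF (interval -5.12 to -0.17, adjusted p = 0.232). The spread that enters this test comes from all 10 arrays, those of 45 DAF included. At 40 DAF the change was called without 45 DAF replicate 1 (adjusted p = 0.037), without 45 DAF replicate 2 (adjusted p = 0.0266), without both (adjusted p = 0.0268) and with 50 added to each signal (adjusted p = 0.0452). At 45 DAF the change was -4.57 (limma, adjusted p = 0.0448). That call was lost without any 1 of 9 arrays, with adjusted p from 0.0568 to 0.307, and held only when 45 DAF replicate 1 was the array left out. Without 45 DAF replicate 2 the change at 45 DAF was -2.48, and without 45 DAF replicate 1 it was -6.66.

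From 25 to 50 DAF LAR1 changed by -7.10 on the log2 scale (SE 1.10, interval -9.58 to -4.63, limma, adjusted p = 0.000822). Both signals at 50 DAF are low, so the size of the change is uncertain. With 50 added to each signal it was -3.79, with an adjusted p of 0.000407. From 40 to 50 DAF the change was -4.46 (limma, adjusted p = 0.0115), a call lost without 40 DAF replicate 2 (adjusted p = 0.126), without 50 DAF replicate 2 (adjusted p = 0.0675) and with 50 added (-1.49, adjusted p = 0.0573). From 45 to 50 DAF it was -2.54 and not called (adjusted p = 0.114). Without 45 DAF replicate 2 that change was -4.62 and called (adjusted p = 0.0015), and without 45 DAF replicate 1 it was -0.45 (adjusted p = 0.773).

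ANS2, which makes the anthocyanidins, rose before it fell. Its signals were 494.9 and 284.5 at 25 DAF, 990.3 and 663.9 at 30 DAF, 1405 and 1343 at 40 DAF, 1369 and 682.6 at 45 DAF, and 150 and 85.6 at 50 DAF. The arrays of 30 DAF lay above those of 25 DAF and those of 40 DAF above both, and the arrays of 50 DAF lay below every other. The mean was 390 ± 149 at 25 DAF, 1374 ± 43.8 at 40 DAF and 118 ± 45.3 at 50 DAF (SD, n = 2).

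Against 25 DAF, the log2 change of ANS2 was 1.11 at 30 DAF (SE 0.30, limma, adjusted p = 1) and 1.87 at 40 DAF (SE 0.30, interval 1.20 to 2.54, adjusted p = 0.0171). The rise at 40 DAF was not called without replicate 1 or replicate 2 of 25 DAF (adjusted p = 0.125 and 0.212) or without 40 DAF replicate 2 (adjusted p = 0.214). At 45 DAF ANS2 was higher by 1.37 (limma, adjusted p = 0.0334). That call was lost without any 1 of the 4 arrays of 25 and 30 DAF, with adjusted p from 0.0582 to 0.26, and without the replicate block (adjusted p = 0.0797), but held without either array of 45 DAF (1.14 and 1.59, adjusted p = 0.0492 and 0.0484). The fall that followed was the best supported change of the 5 genes by adjusted p. The log2 change was -3.09 from 45 to 50 DAF (SE 0.30, adjusted p = 0.000325), between -2.87 and -3.32 without either array of 45 DAF, and -3.60 from 40 to 50 DAF (interval -4.27 to -2.93, adjusted p = 0.000143). ANS2 ended below its level of 25 DAF, with a log2 change of -1.73 (SE 0.30, limma, adjusted p = 0.00141).

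UGT78K1, the 3-O-glucosyltransferase, gave signals of 636.9 and 460.9 at 25 DAF, 441.5 and 484.6 at 30 DAF, 766.0 and 653.9 at 40 DAF, 948.7 and 225.4 at 45 DAF, and 124 and 72.5 at 50 DAF. Both arrays of 40 DAF lay above all arrays of 25 and 30 DAF, and both arrays of 50 DAF lay below every earlier one. The 45 DAF arrays held the highest value and the lowest value before 50 DAF. The log2 change from 25 DAF was 0.39 at 40 DAF (interval -0.71 to 1.48, limma, adjusted p = 0.738) and -0.23 at 45 DAF (adjusted p = 0.827). The latter was -1.10 without 45 DAF replicate 1 and 0.64 without replicate 2, neither called (adjusted p = 0.0948 and 0.474). UGT78K1 then fell by 2.29 from 45 to 50 DAF (limma, adjusted p = 0.00744). This change was -1.42 without 45 DAF replicate 1 and -3.16 without replicate 2, both called (adjusted p = 0.0373 and 0.000202), and not called by the plain linear model (adjusted p = 0.0769). The change from 40 to 50 DAF was -2.90 (SE 0.49, adjusted p = 0.00185). From 25 to 50 DAF it fell by 2.52 (SE 0.49, interval -3.61 to -1.42, adjusted p = 0.00264).

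ANR1, which leads to epicatechin, gave signals of 50.2 and 55.9 at 25 DAF, 43.0 and 15.2 at 30 DAF, 1.41 and 8.46 at 40 DAF, 56.4 and 54.0 at 45 DAF, and 76.8 and 5.39 at 50 DAF. Of its 10 signals, 5 were under 50, and its highest was 76.8. The arrays of 40 DAF lay below those of the other time points except 50 DAF replicate 2, which fell between them. No comparison called ANR1 on all 10 arrays. Without 50 DAF replicate 2 it was called higher at 50 than at 40 DAF (4.62, limma, adjusted p = 0.0471), against 2.56 and an adjusted p of 0.198 with it. Its log2 change from 25 DAF was -3.94 at 40 DAF (interval -7.16 to -0.72, limma, adjusted p = 0.176) and -0.96 with 50 added to each signal. At these signals a change of this transcript could not be resolved. ANR2, its neighbour on chromosome 8, has no probe set of its own symbol, and neither have ANS3 and UGT78K2, so these copies were not analysed here.

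The calls of the 5 genes fell mostly in the last interval, and so did those of all probe sets. Of all probe sets, 11743 were called from 45 to 50 DAF, against 4 from 25 to 30, 436 from 30 to 40 and 0 from 40 to 45 DAF. At 30 DAF 0 of 5 were called lower in limma (0% of all probe sets were), while 1 of 5 had an unadjusted p under 0.05, ANS2, which was higher. At 40 DAF 1 was higher (1.55% of all) and 0 were lower (1.53% of all), with 3 of 5 at an unadjusted p under 0.05. At 45 DAF 1 was higher (2.87% of all) and 1 lower (3.14% of all). At 50 DAF 4 were lower than at 25 DAF (19.3% of all) and 0 higher (24.6% of all). From 45 to 50 DAF 3 were lower (12.6% of all) and 0 higher (18.6% of all). From 40 to 50 DAF 4 were lower (15.2% of all) and 0 higher (21.5% of all). The median change of the 5 from 25 to 50 DAF was -2.52 on the log2 scale, against 0.17 over all probe sets. With the signals as deposited, the split over all probe sets from 25 to 50 DAF went from 9238 higher and 7266 lower to 6396 higher and 10069 lower, and the same 4 genes were called lower. Between 30 and 40 DAF 0 of 5 were called, where 0.678% of all probe sets were higher and 0.481% lower, and between 40 and 45 DAF 0 of 5 were, where 0% of all were higher and 0% lower. In each of these intervals 1 of 5 had an unadjusted p under 0.05 in limma.

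**Figure D2:**
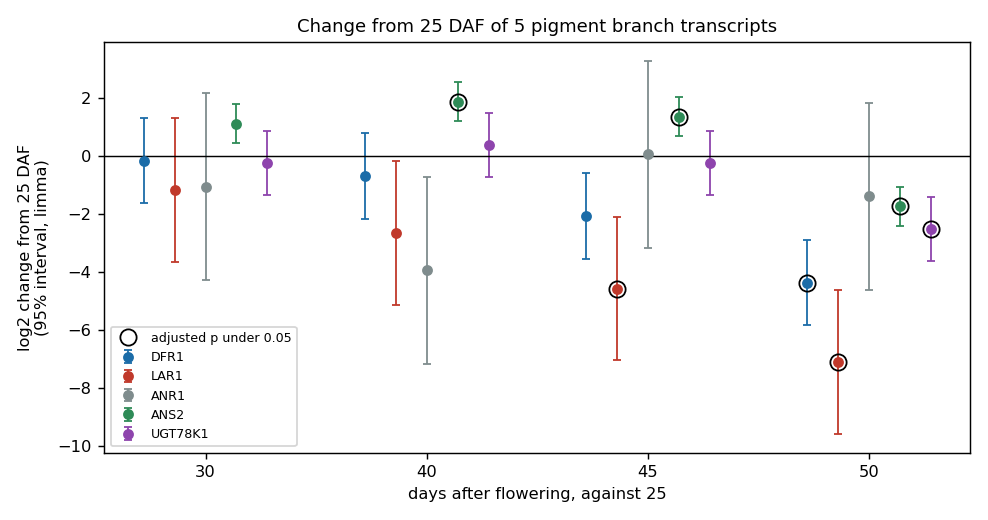
Log2 change from 25 DAF (vertical axis) of each transcript at 30, 40, 45 and 50 DAF, with 95% intervals from limma, rings marking an adjusted p under 0.05. ANS2 is ringed above 0 at 40 and 45 DAF, LAR1 is ringed below 0 at 45 DAF, and 4 of 5 are ringed below 0 at 50 DAF, from -1.73 to -7.10.

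The order in which the steps left their high levels was described by the first later time point at which a mean was under 50% of its own highest. This was 30 DAF for LAR1, 45 DAF for DFR1, and 50 DAF for ANS2 and UGT78K1. Within single replicate series it was 30 and 40 DAF for LAR1, 50 and 45 DAF for DFR1, 50 DAF in both for ANS2, and 50 and 45 DAF for UGT78K1 (replicates 1 and 2). Of these 4, LAR1 came first in either series. ANR1, left out because of its low signals, was under 50% of its highest at 30 DAF in series 2. The order of the other steps differed between the series, and no test of the order was made.

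Differences between the courses also appeared within single arrays, where scaling cancels. LAR1 had changed from 25 DAF by 1.09 and 0.94 more than DFR1 in the direction of a loss at 30 DAF, the log2 differences being -1.09 and -0.94. At 40 DAF they were -2.60 and -1.32. ANS2 exceeded DFR1 in its change from 25 DAF by 2.56 and 2.55 at 40 DAF, and UGT78K1 exceeded DFR1 by 1.16 and 0.98. Both arrays of a time point had the same sign in each of these comparisons. At 30 DAF the difference of UGT78K1 and DFR1 did not, at 0.09 and -0.23.

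Over the 10 arrays, which share the time points, DFR1 and LAR1 correlated at 0.954, DFR1 and UGT78K1 at 0.887, ANS2 and UGT78K1 at 0.868, and LAR1 and UGT78K1 at 0.805 (Pearson's r of log2 signal). DFR1 and ANS2 correlated at 0.663 and ANS2 and LAR1 at 0.505. ANR1 correlated with the other 4 at -0.152 to 0.145. Among 1029 probe sets with an informative single symbol and a mean signal at or above the array median, the course of DFR1 was most like those of CYP98A2, a cytochrome P450 of phenylpropanoid hydroxylation (0.992), PDIL-2, a protein disulfide isomerase-like protein (0.992), and PAP25, a purple acid phosphatase (0.991). For LAR1 these were APX1, an ascorbate peroxidase (0.984), GAPDH, the glycolytic dehydrogenase (0.983), and COPZ1, a coatomer subunit (0.976). For ANS2 they were the transcription factors WRKY22 (0.974) and BZIP126 (0.962), and SSH2 (0.956). For UGT78K1 they were COR1 (0.992), SWEET17, a sugar transporter (0.983), and PEPC7, a phosphoenolpyruvate carboxylase (0.977). For ANR1 the closest was CYP17, at 0.711.

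The replicates of 45 DAF parted for 4 of the 5 genes in the same direction. Replicate 2 was 6.37-fold lower than replicate 1 for DFR1, 4.21-fold for UGT78K1 and 2.0-fold for ANS2, which among all probe sets put these differences at the 3.74, 5.68 and 15.8 percentiles. LAR1 stood at 168.1 and 9.85, and since the latter is low, its ratio is uncertain. The signals of ANR1 were 1.04-fold apart. At 40 DAF the replicates of DFR1, ANS2 and UGT78K1 differed by 1.04-fold, 1.05-fold and 1.17-fold, and those of LAR1 by 2.34-fold. ANR1 was at 1.41 and 8.46, both low.

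**Figure D3:**
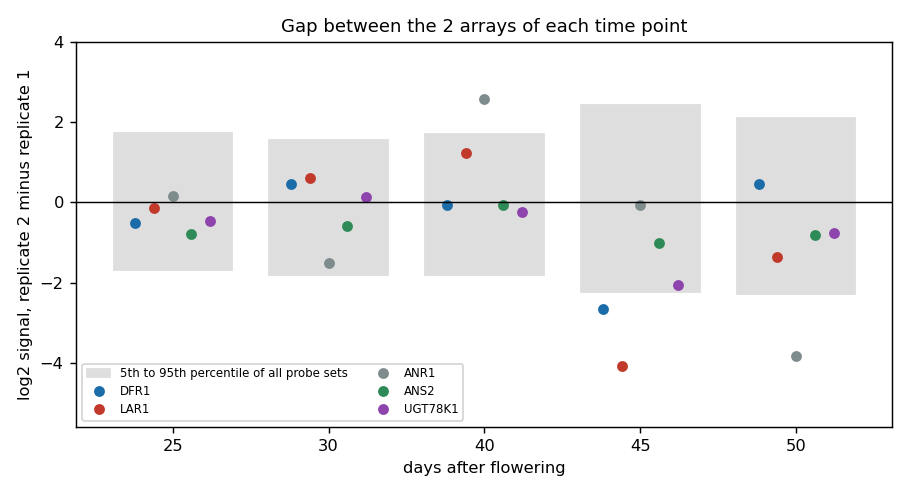
Log2 signal of replicate 2 minus replicate 1 (vertical axis) at each time point for the 5 transcripts, with grey boxes from the 5th to the 95th percentile of all probe sets. At 45 DAF, LAR1 and DFR1 lie below the box, whose lower edge is at -2.24, and UGT78K1 lies just inside it at -2.07.

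The seed coat marker list parted at 45 DAF as well in its summed signal, mostly through HPS. The list holds SCB1 (a BURP-domain protein of the coat), HPS, SSTP-1 and Ep (the seed coat peroxidase), 4 of 4 genes found, with 5 probe sets. Their summed signal was 139960 and 142370 at 25 DAF, 101330 and 134650 at 30 DAF, 93889 and 80540 at 40 DAF, 82560 and 34352 at 45 DAF, and 14282 and 12770 at 50 DAF. The embryo list of storage proteins and SLE2, with 6 genes found of a longer list sought and 9 probe sets, summed to between 281270 and 388500 on all 10 arrays. Glycinins made up most of this sum, with a mean of 83297 at 25 DAF for the brighter probe set of GY1. The members of the embryo list did not all hold their level. The glycinin GY3 had a mean of 38518 at 25 DAF and 1565 at 50 DAF, with 33426 and 7930 at 45 DAF. SLE2, a late embryogenesis abundant protein, went from 70.9 to 81727, and the brighter probe set of CG-1 from 424 to 2711.5. HPS, a hydrophobic protein of the seed surface, stood at 55179 and 14670 at 45 DAF and at 242 and 144 at 50 DAF, and SCB1 was already at 126 and 96.2 at 40 DAF. Ep stood at 25612 and 18776 at 45 DAF and remained at 13469 and 12189 at 50 DAF. At 30 DAF, SCB1 stood at 847 and 19958 in replicates 1 and 2. SSTP-1 had probe sets that disagreed, the brighter at 42900 and 42707 at 25 DAF and 72.9 and 18.7 at 50 DAF, and the other at 427 and 444 and then 427 and 355. The brighter also parted at 30 DAF (12881 and 39728), and the other stood at 301 and 293 at 45 DAF. The part of the seed coat share of the RNA in the falls of DFR1, LAR1, ANS2 and UGT78K1 was not tested.

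The other flavonoid genes form a list of 33 genes with 69 probe sets in 14 roles, in which the probe sets of 1 gene count separately. Of the 69, 31 were called over time (44.9%, against the 24% of all probe sets). From 25 to 40 DAF 15 were higher in limma (21.7%, against 1.55% of all) and 0 lower (1.53% of all). At 45 DAF 17 were higher (24.6%, against 2.87% of all) and 0 lower (3.14% of all). Both counts include all 5 probe sets of CHS8 and all 4 of HIDH. From 25 to 50 DAF 19 were higher (27.5%, near the 24.6% of all) and 23 lower (33.3%, against 19.3% of all). From 40 to 50 DAF 13 were higher (18.8%, against 21.5% of all) and 24 lower (34.8%, against 15.2% of all). The latter split was 7 and 29 with quantile normalization and 7 and 31 as deposited. The median change of the list from 25 to 50 DAF was 0.08 on the log2 scale.

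F3H, flavanone 3-hydroxylase, makes the dihydroflavonols that DFR uses. Its probe set of higher mean signal gave 5336 and 4393 at 25 DAF, 4893 and 4676 at 40 DAF, 5127 and 1615 at 45 DAF, and 348 and 459 at 50 DAF. It held its level through 40 DAF, parted between the 45 DAF replicates, and at 50 DAF lay below every earlier array. Its log2 change from 25 to 50 DAF was -3.60 (limma, adjusted p = 0.000188), and that of the other F3H probe set was -2.83 (adjusted p = 0.000296). FLS1, flavonol synthase, which draws on the same dihydroflavonols, fell by 1.08 (adjusted p = 0.0392), and its other probe set by 2.05.

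DFR2, a second dihydroflavonol reductase gene known as W4, followed a course unlike that of DFR1 up to 40 DAF. Its signals were 99.1 and 106 at 25 DAF, 280 and 172 at 30 DAF, 305 and 415 at 40 DAF, 483 and 177 at 45 DAF, and 11.1 and 51.4 at 50 DAF. Every array of 30 to 45 DAF lay above those of 25 DAF, and those of 50 DAF lay below every earlier one. The change at 40 DAF was 1.80 on the log2 scale and not called (limma, adjusted p = 0.255), and that from 40 to 50 DAF was -3.90 (adjusted p = 0.00432). The difference between DFR2 and DFR1 was not tested.

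Upstream of the branch point the roles divided by gene. PAL2.1, phenylalanine ammonia-lyase, was higher at 40 DAF than at 25 DAF, with a log2 change of 2.62 (limma, adjusted p = 0.00461) and also at 50 DAF (2.15), by its probe set of highest mean signal. Its other probe sets differed, 1 changing by 2.96 at 40 DAF (adjusted p = 0.0212) and 0.74 at 50 DAF (not called), and 1 by -0.83 and -0.50 (neither called). C4H, cinnamate hydroxylase, was not called against 25 DAF, with 0.31 from 25 to 50 DAF by its probe set of higher mean signal. Of its 2 probe sets, 1 was called lower at 50 than at 40 DAF. The coumarate ligases 4CL1 and 4CL fell by 8.26 and 1.99 from 25 to 50 DAF (adjusted p = 5.91e-05 and 0.00137), 4CL1 ending at a low signal of 6.24 ± 6.63 (SD, n = 2), and the other 4CL1 probe set changed by -3.01. Of the 7 ligase probe sets 3 were lower and 0 higher in this comparison, and those of the other ligase genes were not called.

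CHS8 and CHS1, chalcone synthases, were higher at 50 DAF than at 25 DAF by 5.55 and 1.08 (limma, adjusted p = 2.33e-05 and 0.0147) by their probe sets of highest mean signal. All 5 probe sets of CHS8 were called higher. Of the 7 of CHS1, 1 was higher, 1 was lower (-4.80, adjusted p = 0.0033) and 5 were not called. The chalcone reductase CHR4 was higher by 1.81 (adjusted p = 0.000662) while CHR5 was not called (0.72). The probe sets grouped by gene name as chalcone isomerase went both ways, 2 higher and 9 lower of 12. The lower ones include all 4 of CHI3A1 and all 4 of CHI1B1. Which of these genes encode an active isomerase was not checked. CHI1A and CHI4A were higher by 2.14 and 0.50 (adjusted p = 9.05e-05 and 0.0419), with 1 other CHI4A probe set not called. CHI2-A, named after its values were seen, stood at 841 ± 187 at 25 DAF, 1299 ± 29.2 at 40 DAF and 25.2 ± 17.5 at 50 DAF (SD, n = 2), a change of -5.89 from 40 to 50 DAF (adjusted p = 9.22e-05).

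In the isoflavone branch, which leaves the pathway before F3H, the 2 isoflavone synthase and 4 dehydratase probe sets were all called higher at 50 than at 25 DAF, while of 10 isoflavone reductase probe sets 0 were higher and 4 lower. IFS2 and IFS1, the isoflavone synthases, were higher at 50 DAF than at 25 DAF by 3.81 and 2.14 (limma, adjusted p = 7.4e-05 and 6.52e-05). HIDH, the dehydratase that completes the isoflavone, was higher by 4.11 (adjusted p = 6.26e-05) and already by 2.79 at 40 DAF (adjusted p = 0.00536). IFR1, an isoflavone reductase, fell by 8.26 (adjusted p = 6.26e-05) to a low signal, while IFR2 was not called (0.08). Of the flavonoid glucosyltransferases, a role not limited to the isoflavone branch, UGT708D1 fell by 3.42 (adjusted p = 0.000273) and IF7GT was not called (0.48). Of the genes grouped by name as pterocarpan enzymes, G4DT and CYP93A2 were higher by 3.35 and 4.74 (adjusted p = 0.0293 and 0.0216). Both rose from low signals at 25 DAF, and 1 other G4DT probe set was not called. Of the 5 probe sets of this role 2 were higher and 0 lower. The remaining gene, CYP93A1, named here beyond the 2 genes a role, was not called by either probe set. Its probe set of higher mean signal, at a low 42.1, changed by -1.40 (limma, adjusted p = 0.382).

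**Figure D4:**
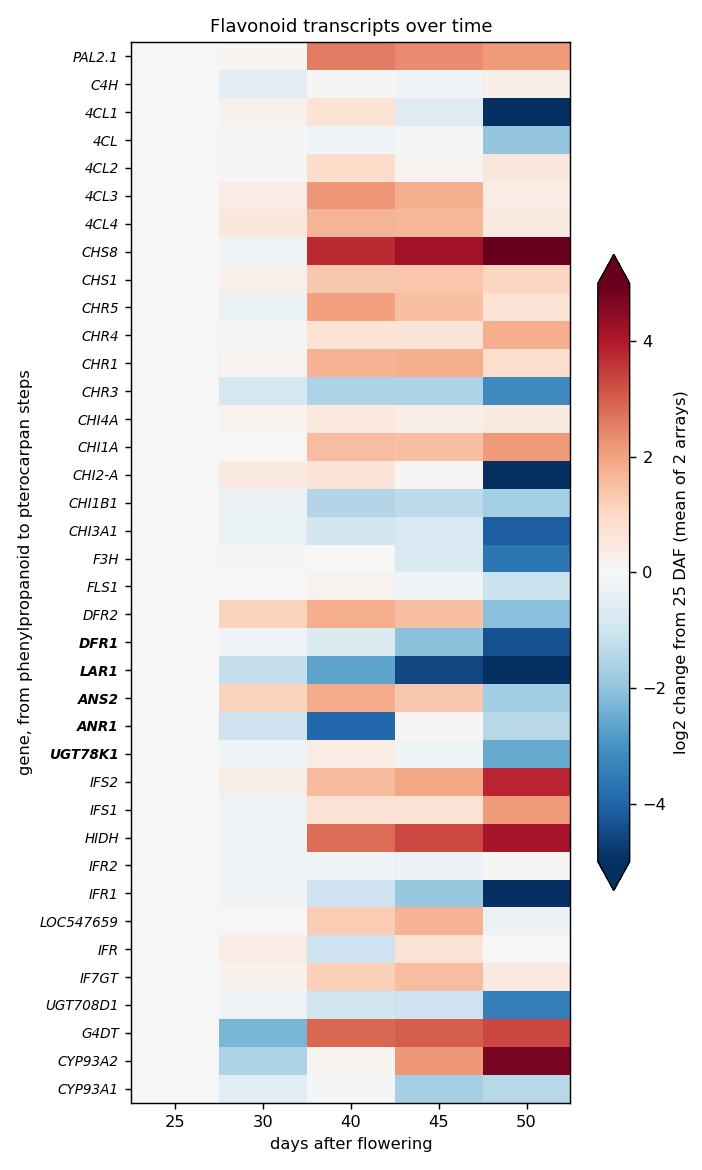
Mean log2 change from 25 DAF (colour, red higher and blue lower, 2 arrays a time point, saturated at 5) of 1 probe set per gene, that of the highest mean signal, in rows from phenylpropanoid to pterocarpan steps, with the 5 pigment branch genes in bold. LAR1, DFR1 and F3H end in blue at -7.10, -4.36 and -3.60, and CHS8, IFS2 and HIDH end in red at 5.55, 3.81 and 4.11.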

How the data were processed

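Total RNA of whole Evans seeds was hybridised to Affymetrix Soybean arrays, 10 in all, from 5 time points with 2 biological replicates each. The deposited intensity values are linear signals made by the authors with MAS 5.0, with global scaling per chip stated in the methods. The table holds 37593 soybean probe sets. The study cites a SoyBase annotation of the array, while the build behind the gene symbols used here is not stated. Precision is limited by how few arrays there are.

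The log2 signals were taken relative to the median of their array. Fixed effects of time and of replicate, after the study's methods, were fitted across all probe sets with limma 3.58.1 in R 4.3.3, moderating variances along a signal trend (4 residual and 5.08 prior degrees of freedom). Calls used Benjamini-Hochberg adjusted p under 0.01 for the overall F-test and under 0.05 for pairs of time points. P-values measure the spread between these pooled samples. The fit was tested on simulated data.

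The gene symbols are those of the platform annotation, in which 8677 probe sets carry 1 symbol, 370 carry several and 28546 carry none. Named are the 5 members, up to 2 genes a role of highest mean signal in the flavonoid list, and the 3 probe sets most alike to each member, of which only the first is given for ANR1. Members and lists were chosen with earlier results of these data known. Alternatives were other scalings, no block, no trend, a robust prior, a filter at the median signal, 50 added to each signal, other thresholds, the plain linear model of the methods and each array left out. The comparison of 50 with 40 DAF and the fit without both 45 DAF arrays were added after seeing the data. The third time point is 40 DAF in the labels, which is used here.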

Additional observations from a re-analysis of the deposited data

How the results depend on the processing

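The count of 4 transcripts lower at 50 than at 25 DAF was 4 under each alternative except the filter at the median signal, which left LAR1 out and gave 3. The 4 called over time became 0 without the variance trend and 0 with the plain linear model of the methods. With each array left out they became 1 to 4. Without the trend and with the plain model, 0 of all probe sets passed the Benjamini-Hochberg adjustment used here. Unadjusted F-tests at p under 0.01 gave 8713 and 6389 probe sets, 3 and 1 of them members. The study instead converted the p-values of its linear model to q-values, and it reported probe sets changed over time at a q-value under 0.01. Without the replicate block 3 were called over time, UGT78K1 being lost (adjusted p = 0.0125), as it was with quantile normalization (0.0118) and with 50 added to each signal (0.0101), and the filter left LAR1 out and gave 3. In the other comparisons the block changed no other call but that of ANS2 at 45 DAF. Differences between replicates correlated at only -0.0336 to 0.0302 over the 10 pairs of time points, so the numbers do not pair the samples. The count lower at 40 than at 25 DAF, 0, became 1 with 50 added to each signal and 1 without both arrays of 45 DAF, LAR1 each time, and 0 to 1 with each array left out. The count lower at 45 than at 25 DAF, 1, was 0 without the trend, with the filter, with the plain model and at a threshold of 0.01, and 0 to 2 with each array left out. The 3 changed from 45 to 50 DAF became 1 with the plain model, 2 without the trend and at a threshold of 0.01, and 2 to 4 with each array left out. The 4 lower at 50 than at 40 DAF became 2 with the plain model, 3 with 50 added, with the filter and at a threshold of 0.01, and 3 to 4 with each array left out. Of the single-gene changes under the alternatives, 501 kept their sign and their side of the threshold, 33 lost the call and 7 gained one. Another 7, uncalled in either fit, changed sign, and 0 called ones reversed. The cause of these shifts was not tested. Low signals limit ANR1 at 30, 40 and 50 DAF and the size of LAR1 at 50 DAF and on 1 array of 45 DAF.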
